A study of Mus musculus with 6 samples.

Results

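The receptors through which polarizing cytokines reach helper T cells were examined in mouse aTreg, the adaptive regulatory T cells that arise when CD4 T cells switch on Foxp3, the defining factor of regulatory T cells, during activation with TGF-beta. The 10 genes were chosen by name from the 25759 gene identifiers of the deposited table, and all 10 were found: Il12rb1 and Il12rb2 (IL-12), Il18r1 and Il18rap (IL-18), Il1rl1 (IL-33), Il4ra (IL-4), Il6ra and Il6st (IL-6), Il21r (IL-21) and Il10ra (IL-10). There were 3 BMPR1a-deficient libraries, from mice labelled BMPR/CD4cre, and 3 wild type (WT) libraries. BMPR1a is a receptor that senses bone morphogenetic proteins. The Cre that deletes it is under Cd4 control, and because Cd4 is active in developing T cells before they become CD4 or CD8 cells, CD8 T cells are targeted as well. Mice of both groups were C57BL/6, aged 8 to 12 weeks, and carried the Foxp3-GFP reporter. In both groups whole spleen and lymph node suspensions were stimulated with concanavalin A (2 µg/ml), which activates T cells, while IL-2 (10 ng/ml) and TGF-beta (3 ng/ml) were present. After 3 days the CD4+ Foxp3-GFP+ fraction was isolated by sorting. This sort does not tell cells that switched on Foxp3 in culture from any that had it before. Their shares were not tested. Whether replicate libraries stem from different mice or cultures is not stated in the labels, and the p-values therefore reflect only the spread among these samples, which may be technical.

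These receptors fall into families that signal differently. IL-12, IL-4, IL-6, IL-21 and IL-10 act through paired chains that carry JAK kinases, which phosphorylate STAT proteins: STAT4 after IL-12, STAT6 after IL-4 and mainly STAT3 after IL-6, IL-21 and IL-10. The IL-18 and IL-33 receptors belong to the IL-1 receptor family and signal through the adaptor MyD88. In CD4 T cells, IL-12 and IL-18 are known for Th1 responses, IL-4 for Th2, IL-6 and IL-21 for Th17 and follicular helper cells, IL-33 for activating tissue regulatory T cells, and IL-10 for restraining inflammation.

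The values are FPKM, fragment numbers corrected for transcript length and for the mapped depth of each library, so levels can be compared between genes of different length. The steps of the lowest values pointed to between 31900000 and 36300000 fragments per BMPR1a-deficient library and between 30000000 and 37900000 per WT library. The defining markers of the sorted cells were present in every library: Cd4 was at 349 to 436 FPKM in BMPR1a-deficient and 329 to 359 in WT aTreg, and Foxp3 at 51.3 to 96.9 and 49.4 to 62.3. Of the 10 T cell and regulatory T cell markers 0 passed the threshold. The smallest p belonged to Ikzf2, a factor of regulatory T cells, at 47.5 ± 4.49 FPKM in BMPR1a-deficient and 25.5 ± 6.40 in WT aTreg (SD, n = 3 each, limma adjusted p = 0.104). Ctla4, an inhibitory receptor of regulatory T cells, had the next smallest p and lay on the other side, at 170 ± 57.9 FPKM in BMPR1a-deficient and 254 ± 19.4 in WT aTreg, without overlap (SD, n = 3 each, limma adjusted p = 0.361). The log2 fold change of Ctla4 was -0.64, and -0.31 without BMPR1a-deficient replicate 1. Bmpr1a, the deleted gene, was at 0.439, 0.720 and 0.691 FPKM in BMPR1a-deficient and 1.39, 2.34 and 1.31 in WT aTreg (limma adjusted p = 0.183). BMPR1a-deficient replicate 1 stood apart. Its 13 mitochondrially encoded transcripts, with mt-Co2 and mt-Co1 at the smallest p, summed to 5335 FPKM, against 44657 and 44712 in the other BMPR1a-deficient libraries and 50442 to 53789 in WT. Results that rest on this library are therefore also given without it. Markers of other cells were also measured: those of CD8 T cells summed to 37.9 to 68.4 FPKM in BMPR1a-deficient and 32.0 to 41.8 in WT aTreg, those of B cells to 38.3 to 53.1 and 26.6 to 53.5 (by smallest p, Blk at 3.42 ± 0.290 and 2.07 ± 0.895), and those of dendritic cells to 1.22 to 1.58 and 1.21 to 1.80.

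Of the 9 receptor genes that passed the filter of a mean of at least 1 FPKM, 0 passed an adjusted p of 0.05 on either side of the BMPR1a-deficient to WT comparison (limma on log2(FPKM + 1), adjusted over all 13413 genes tested). Of all genes tested 1.07% passed, with 0.746% (100 genes) higher and 0.321% (43 genes) lower in BMPR1a-deficient aTreg. The receptor genes nearest to a call were Il4ra, at 64.4% of the WT mean (adjusted p = 0.0702), and Il18r1, at 67.5% (adjusted p = 0.120). At an unadjusted limma p under 0.05 there were 3 of the 9, Il4ra, Il18r1 and Il10ra, each lower, where 15.2% of all genes tested passed, 9.29% as higher and 5.87% as lower. The groups did not overlap for 5 of the 10: for Il12rb2, Il18r1, Il4ra and Il10ra the highest BMPR1a-deficient value lay below the lowest WT value, and for Il21r the lowest lay above the highest WT value. Among all genes tested 26.3% had groups that did not overlap, 10.4% on the lower and 15.9% on the higher side. Without BMPR1a-deficient replicate 1 the groups were apart for 7 of the 10 receptors, with Il18rap added on the lower and Il1rl1 on the higher side, where this held for 41.9% of all genes tested (13.8% lower, 28.1% higher). The median log2 difference over the 10 receptors was -0.15, against 0.04 over all genes tested. In a sorted bulk sample, fewer cells with a receptor and less receptor RNA per cell cannot be told apart.

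**Figure D1:**
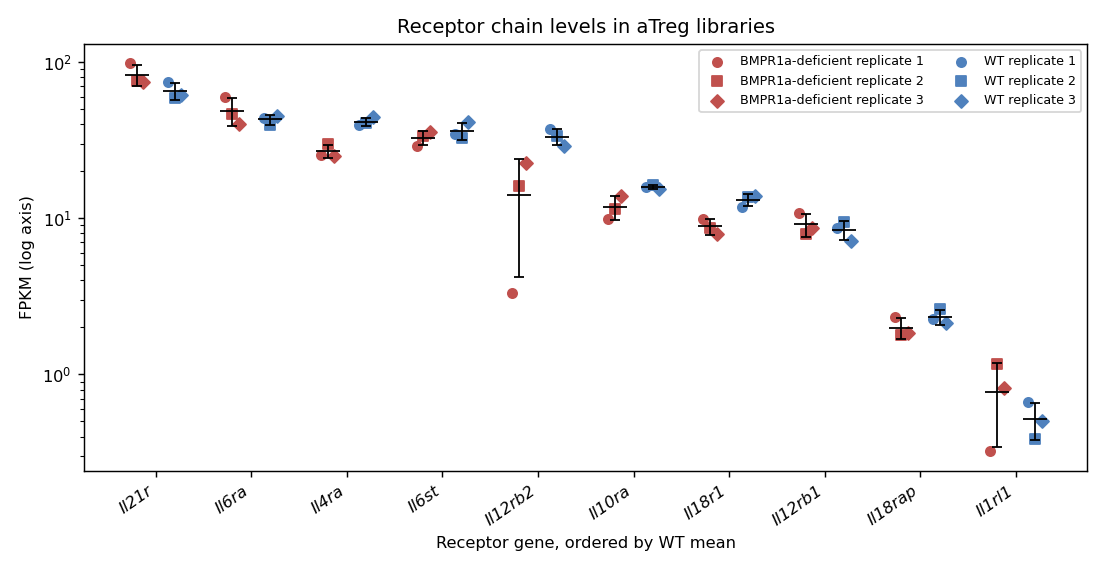
FPKM of the 10 receptor genes on a log axis, with BMPR1a-deficient libraries (red) left of WT libraries (blue) and 1 point per library; bars are the mean and SD of 3 libraries. Il21r is highest in each group and Il1rl1 lowest, and the Il12rb2 point of BMPR1a-deficient replicate 1 lies far below the other 5.

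The 10 receptors spanned a wide range of levels. In BMPR1a-deficient aTreg the mean FPKM ran from 83.0 for Il21r to 0.768 for Il1rl1, and in WT aTreg from 65.2 to 0.516 for the same genes. Il21r stood above Il6ra, the next in order, in both groups, with no overlap of their ranges. In WT aTreg Il6ra, Il4ra, Il6st and Il12rb2 followed at means of 42.9, 41.6, 36.4 and 33.3 FPKM, and the ranges of each neighbouring pair among these 4 overlapped. In BMPR1a-deficient aTreg Il6ra and Il6st (48.8 and 32.9 FPKM) stood above Il4ra at 26.8, and Il6st and Il4ra overlapped. Il12rb2, Il10ra, Il12rb1 and Il18r1 then lay at 14.1, 11.7, 9.13 and 8.87 FPKM in BMPR1a-deficient aTreg, each overlapping with its neighbour. In WT aTreg the order below Il12rb2 was Il10ra (15.9), Il18r1 (13.1) and Il12rb1 (8.39), and these did not overlap with their neighbours. Il18rap and Il1rl1 came last in both groups.

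The IL-12 receptor joins Il12rb1, which is shared with the IL-23 receptor, to Il12rb2, the chain that recruits STAT4 and is characteristic of Th1 cells. Il12rb2 (ENSMUSG00000018341, chromosome 6, 67291318 to 67376188 in GRCm38) was at 3.33, 16.1 and 22.7 FPKM in BMPR1a-deficient aTreg, against 37.2, 33.6 and 29.2 in WT aTreg. Every BMPR1a-deficient library was below every WT library, and replicate 1 was far below the other two. The BMPR1a-deficient mean was 42.2% of the WT mean, and the log2 fold change was -1.502 (SE 0.622, 95% interval -3.02 to 0.02, limma adjusted p = 0.335). Without BMPR1a-deficient replicate 1 the log2 fold change was -0.76 (95% interval -1.24 to -0.29, adjusted p = 0.135) and the mean 58.2% of WT. Il12rb1 (ENSMUSG00000000791, chromosome 8, 70808449 to 70821424) was at 10.9, 7.88 and 8.65 FPKM in BMPR1a-deficient aTreg, against 8.62, 9.41 and 7.13 in WT aTreg. The groups overlapped, and the log2 fold change of 0.11 (95% interval -0.27 to 0.48, limma adjusted p = 0.748) turned to -0.013 without BMPR1a-deficient replicate 1.

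The FPKM ratio of Il12rb2 to Il12rb1 was 0.307, 2.05 and 2.63 in the BMPR1a-deficient libraries and 4.31, 3.57 and 4.09 in the WT libraries. Il12rb2 was thus the more abundant chain in all libraries except BMPR1a-deficient replicate 1. Il12rb2 is also made by NK cells and CD8 T cells. The 6 NK cell markers summed to 16.3 to 54.3 FPKM in BMPR1a-deficient and 80.1 to 132.7 in WT aTreg, most of it Klrd1 (23.4 ± 12.5 and 84.8 ± 26.2, SD, n = 3 each). Of these markers, Ncr1 and Klra8 were at or near 0 in all 6 libraries, at most 0.022 and 0.030 FPKM. Klrb1c, which encodes the NK cell receptor NK1.1 and was below the filter, lay on the other side from Klrd1, at 0.598, 0.760 and 0.648 FPKM in BMPR1a-deficient and 0.126, 0.0727 and 0.0692 in WT aTreg, without overlap. The other 2 markers overlapped between the groups, Eomes at 4.92 ± 2.57 and 6.93 ± 2.03 FPKM and Tyrobp at 6.68 ± 5.55 and 8.11 ± 4.84 in BMPR1a-deficient and WT aTreg (SD, n = 3 each). Cd8a averaged 20.0 ± 8.05 FPKM in BMPR1a-deficient and 10.02 ± 1.499 in WT aTreg (SD, n = 3 each, limma adjusted p = 0.236), on the other side from Il12rb2, and Cd8b1 overlapped at 30.1 ± 8.08 and 25.5 ± 3.99. The part of such cells in the Il12rb2 values was not tested.

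STAT4, the transducer of IL-12, lay on the same side as Il12rb2. Stat4 was at 22.0, 41.6 and 47.7 FPKM in BMPR1a-deficient aTreg, against 69.2, 73.8 and 74.9 in WT aTreg. The groups did not overlap, replicate 1 was again the lowest, and the WT libraries lay close together. The log2 fold change was -1.02 (SE 0.285, limma adjusted p = 0.189), and without BMPR1a-deficient replicate 1 it was -0.69 and passed the threshold (adjusted p = 0.0463). In that fit 134 of 13413 genes were called higher and 76 lower. Stat4 passed in 2 of the 17 alternative settings, with a limma adjusted p of 0.0246 to 0.518 over them.

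The IL-18 and IL-33 receptor genes sit side by side on chromosome 1 in a cluster of IL-1 receptor family genes, all on the same strand. Il18r1 (ENSMUSG00000026070, 40465552 to 40500854) encodes the chain that binds IL-18. It was at 9.96, 8.70 and 7.96 FPKM in BMPR1a-deficient aTreg, against 11.8, 13.7 and 13.8 in WT aTreg. All BMPR1a-deficient libraries were below all WT libraries, and replicate 1 was here the highest of its group. The log2 fold change was -0.52 (SE 0.116, 95% interval -0.80 to -0.24, limma adjusted p = 0.120), and it was -0.598 without BMPR1a-deficient replicate 1 (adjusted p = 0.0741). Il18rap (ENSMUSG00000026068, 40515362 to 40551705), the accessory chain that signalling requires, was at 2.35, 1.78 and 1.85 FPKM in BMPR1a-deficient aTreg, against 2.26, 2.64 and 2.14 in WT aTreg. Its groups overlapped (log2 fold change -0.16, 95% interval -0.49 to 0.16, limma adjusted p = 0.571). The accessory chain was the scarcer of the pair in every library, with FPKM ratios of Il18rap to Il18r1 of 0.236, 0.204 and 0.233 in BMPR1a-deficient and 0.190, 0.192 and 0.155 in WT aTreg.

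Il1rl1 (ENSMUSG00000026069, 40429570 to 40465415), which encodes the IL-33 receptor ST2, ends 136 bases before the start of Il18r1. It was below the filter, at 0.321, 1.16 and 0.818 FPKM in BMPR1a-deficient aTreg, against 0.663, 0.386 and 0.5003 in WT aTreg. The groups overlapped because of BMPR1a-deficient replicate 1, the lowest of all, and the two-sided exact permutation p was 0.5. With the estimated depths and the longest annotated transcript, these values stand for about 61 to 197 fragments in BMPR1a-deficient and 63 to 105 in WT libraries. Mast cells, basophils and type 2 innate lymphoid cells also make ST2. The 7 markers of these cells summed to 4.24 to 10.8 FPKM in BMPR1a-deficient and 2.95 to 4.65 in WT aTreg, of which Hpgds averaged 4.25 ± 1.13 and 1.26 ± 0.5495 (SD, n = 3 each, limma adjusted p = 0.0997) and Mcpt8, by the next smallest p, 2.09 ± 1.53 and 2.01 ± 0.422. Their part in the Il1rl1 values was not tested. Il1rap, the partner chain of ST2, was at 2.64 ± 0.782 FPKM in BMPR1a-deficient and 2.65 ± 0.273 in WT aTreg (SD, n = 3 each, log2 fold change -0.028, limma adjusted p = 0.950), and the log2 fold change was 0.16 without BMPR1a-deficient replicate 1.

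Of the other genes of the cluster, the decoy receptor gene Il1r2 was at 1.15 ± 0.787 FPKM in BMPR1a-deficient and 0.896 ± 0.192 in WT aTreg (SD, n = 3 each, limma adjusted p = 0.861). The IL-1 receptor gene Il1r1 was at most 0.163 FPKM in the BMPR1a-deficient and 0.0970 in the WT libraries. Il1rl2, which encodes the IL-36 receptor, was at 0.361 ± 0.156 FPKM in BMPR1a-deficient and 0.796 ± 0.259 in WT aTreg (SD, n = 3 each) and was below the filter. The flanking genes Map4k4 (91.0 ± 9.52 and 83.8 ± 3.49 FPKM, limma adjusted p = 0.631) and Slc9a4 (at most 0.014 and 0.017) overlapped between the groups as well. With all 6 libraries, Il18r1 was the one gene of this stretch, from Map4k4 to Slc9a4, whose groups did not overlap. Without BMPR1a-deficient replicate 1 those of Il1r2, Il18rap and Il1rl1 did not overlap either, as held for 41.9% of all genes tested.

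Il4ra and Il21r are neighbours on chromosome 7, on the same strand and 23954 bases apart, and their values lay on opposite sides. Il4ra (ENSMUSG00000030748, 125552120 to 125579474) encodes the chain that binds IL-4 and forms part of the IL-13 receptor. It was at 25.5, 29.8 and 25.1 FPKM in BMPR1a-deficient aTreg, against 39.6, 40.8 and 44.4 in WT aTreg. The groups were far apart relative to their spread, and replicate 1 did not stand out. The log2 fold change was -0.62 (SE 0.107, 95% interval -0.88 to -0.36, limma adjusted p = 0.0702). It ran from -0.69 to -0.57 over all 17 alternative settings, with an adjusted p of 0.0273 to 0.284, and passed the threshold in 2 of them. One was the fit with sample weights (adjusted p = 0.0273), in which 9.24% of all genes tested were called, 6.21% higher and 3.03% lower. The other was the fit on protein-coding genes only (adjusted p = 0.0382), in which 2.86% were called, 1.95% higher and 0.907% lower. Il18r1 also passed with sample weights (adjusted p = 0.0141). Without BMPR1a-deficient replicate 1 the limma adjusted p of Il4ra was 0.0824. Stat6, which encodes the transducer of IL-4, overlapped between the groups, at 75.2 ± 1.13 FPKM in BMPR1a-deficient and 72.0 ± 4.23 in WT aTreg (SD, n = 3 each, limma adjusted p = 0.756).

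Il21r (ENSMUSG00000030745, 125603429 to 125633570) was at 98.1, 75.9 and 75.05 FPKM in BMPR1a-deficient aTreg, against 74.6, 59.3 and 61.8 in WT aTreg. The groups did not overlap, but the lowest BMPR1a-deficient library and the highest WT library nearly met. The log2 fold change was 0.34 (SE 0.154, 95% interval -0.04 to 0.72, limma adjusted p = 0.371). With BMPR1a-deficient replicate 1 left out it was 0.21 (adjusted p = 0.384). The genes on either side of this pair were Nsmce1, at 67.3 ± 15.6 FPKM in BMPR1a-deficient and 73.7 ± 5.45 in WT aTreg (limma adjusted p = 0.695), and Gtf3c1, at 24.2 ± 4.70 and 16.5 ± 0.853 (SD, n = 3 each, adjusted p = 0.194).

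IL-4 and IL-21 receptors share the common gamma chain, encoded by Il2rg. Il2rg was at 167, 344 and 343 FPKM in BMPR1a-deficient aTreg, against 397, 367 and 381 in WT aTreg (log2 fold change -0.496, limma adjusted p = 0.470), and replicate 1 was well below the other 5 libraries. Without BMPR1a-deficient replicate 1 the log2 fold change of Il2rg was -0.15. In all 6 libraries it was above the chains it pairs with. The FPKM ratio of Il4ra to Il2rg was 0.152, 0.0866 and 0.0731 in BMPR1a-deficient and 0.0997, 0.111 and 0.116 in WT aTreg. Replicate 1 was the highest and the other BMPR1a-deficient libraries the lowest of all.

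**Figure D2:**
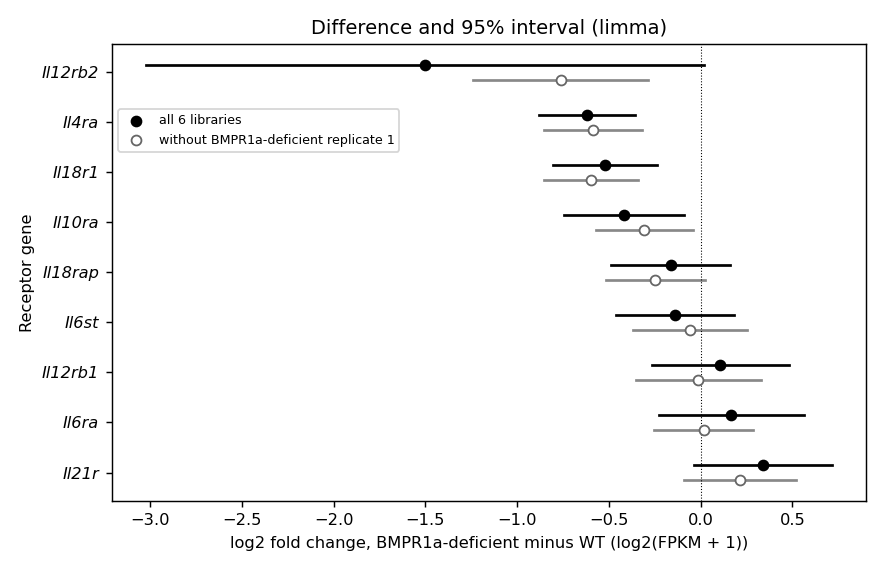
Log2 fold change (BMPR1a-deficient minus WT, log2(FPKM + 1)) of the 9 receptor genes tested, with the 95% interval from limma, for all 6 libraries (filled) and without BMPR1a-deficient replicate 1 (open). Il1rl1 was below the filter and is not drawn. The intervals of Il4ra, Il18r1 and Il10ra lie below 0 in both fits, and that of Il12rb2, -3.02 to 0.02 with all libraries, is -1.24 to -0.29 without that library.

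The IL-6 receptor pairs Il6ra, which binds the cytokine, with Il6st, which encodes the signalling chain gp130 used by the whole IL-6 family. Il6ra (ENSMUSG00000027947, chromosome 3, 89864059 to 89913196) was at 59.6, 46.6 and 40.3 FPKM in BMPR1a-deficient aTreg, against 44.1, 39.4 and 45.3 in WT aTreg. The groups overlapped (log2 fold change 0.17, 95% interval -0.23 to 0.56, limma adjusted p = 0.628), and without BMPR1a-deficient replicate 1, the highest library, the log2 fold change was 0.015 (95% interval -0.25 to 0.28). Il6st (ENSMUSG00000021756, chromosome 13, 112464070 to 112510086) was at 29.1, 33.9 and 35.7 FPKM in BMPR1a-deficient aTreg, against 34.8, 32.8 and 41.6 in WT aTreg. These groups overlapped too (log2 fold change -0.14, 95% interval -0.46 to 0.18, limma adjusted p = 0.616). The log2 fold change of Il6st was -0.059 without BMPR1a-deficient replicate 1 and -0.043 without WT replicate 3. Monocytes and neutrophils also make Il6ra. Their 9 markers summed to 21.8 to 226 FPKM in BMPR1a-deficient and 24.8 to 136 in WT aTreg. The smallest p among them belonged to S100a9 (28.8 ± 29.4 and 3.85 ± 5.47 FPKM) and S100a8 (31.9 ± 32.2 and 5.90 ± 7.12, SD, n = 3 each), whose groups overlapped. Their part in the Il6ra values was not tested.

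IL-10 is sensed by Il10ra, the ligand-binding chain, together with the widely used chain Il10rb. Il10ra (ENSMUSG00000032089, chromosome 9, 45253837 to 45269149) was at 9.84, 11.4 and 13.9 FPKM in BMPR1a-deficient aTreg, against 15.8, 16.4 and 15.4 in WT aTreg. The groups did not overlap, and the WT libraries were nearly equal. The log2 fold change was -0.42 (SE 0.134, 95% interval -0.74 to -0.09, limma adjusted p = 0.246). With BMPR1a-deficient replicate 1 left out it was -0.31 (adjusted p = 0.212). Il10rb was at 38.5, 52.3 and 49.7 FPKM in BMPR1a-deficient aTreg, against 42.2, 35.6 and 39.3 in WT aTreg (log2 fold change 0.25, limma adjusted p = 0.466). The groups overlapped through BMPR1a-deficient replicate 1, without which they did not and the log2 fold change of Il10rb was 0.38 (limma adjusted p = 0.137). Without that library 28.1% of all genes tested had groups that did not overlap on the higher side. The means of Il10ra and Il10rb thus lay on opposite sides, and the FPKM ratio of Il10ra to Il10rb was 0.256, 0.218 and 0.280 in BMPR1a-deficient and 0.374, 0.460 and 0.392 in WT aTreg.

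**Figure D3:**
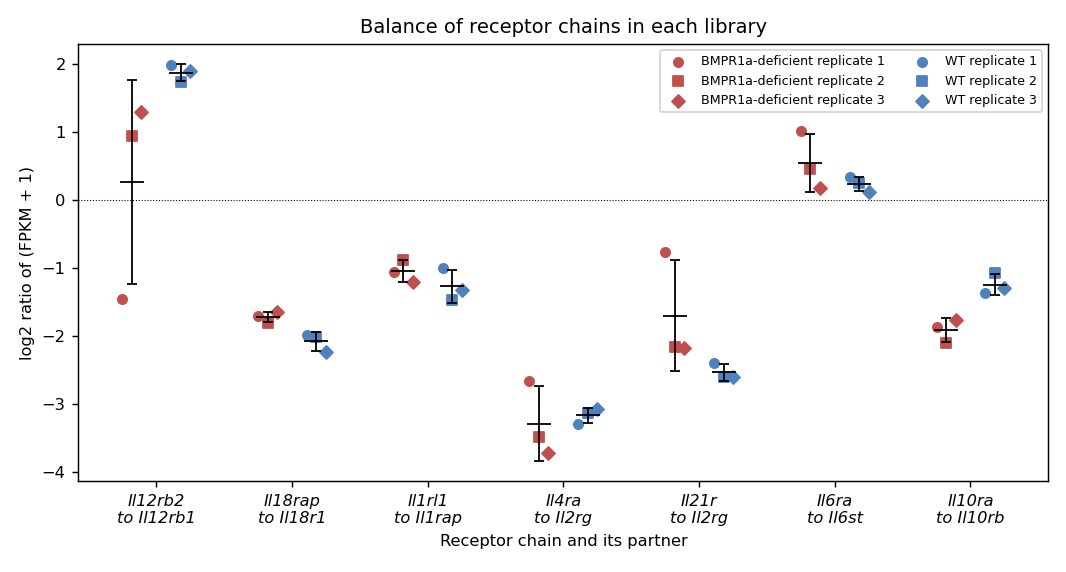
Log2 ratio of (FPKM + 1) between each receptor chain and its partner, per library, with BMPR1a-deficient libraries (red) left of WT libraries (blue); bars are the mean and SD of 3 libraries, and 0 marks equal levels. The groups are apart for Il12rb2 to Il12rb1, Il18rap to Il18r1, Il21r to Il2rg and Il10ra to Il10rb.

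The balance of chains was compared over 7 receptor pairs as log2((FPKM + 1) of the first chain / (FPKM + 1) of its partner). The groups did not overlap for 4 of the 7, and the share of other gene pairs for which this holds was not computed. Il12rb2 to Il12rb1 averaged 0.26 ± 1.497 in BMPR1a-deficient and 1.87 ± 0.129 in WT aTreg (SD, n = 3 each), a difference of -1.61, and -0.75 without BMPR1a-deficient replicate 1. Il10ra to Il10rb averaged -1.91 ± 0.174 in BMPR1a-deficient and -1.24 ± 0.152 in WT aTreg, a difference of -0.66. Il18rap to Il18r1 averaged -1.72 ± 0.0770 in BMPR1a-deficient and -2.08 ± 0.139 in WT aTreg, a difference of 0.36. Il21r to Il2rg averaged -1.70 ± 0.813 in BMPR1a-deficient and -2.54 ± 0.121 in WT aTreg, a difference of 0.84 that was 0.37 without BMPR1a-deficient replicate 1. Each of these 4 gave p = 0.1 in a two-sided exact permutation test, the smallest that 3 against 3 libraries allow (adjusted p = 0.175 over the 7 pairs). For Il4ra to Il2rg, Il6ra to Il6st and Il1rl1 to Il1rap the groups overlapped, with differences of -0.12, 0.31 and 0.22 (exact permutation p = 0.8, 0.3 and 0.3). The Il4ra to Il2rg difference was -0.43 without BMPR1a-deficient replicate 1 and 0.092 without BMPR1a-deficient replicate 3. The Il6ra to Il6st difference was 0.074 without BMPR1a-deficient replicate 1 and 0.49 without BMPR1a-deficient replicate 3, and the Il1rl1 to Il1rap difference lay between 0.12 and 0.35 over the libraries left out.

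Promoter sequences are shown for Il12rb2, Il4ra and Il18r1, the receptors with the largest fold changes, to set the start sites of the lower-lying receptors beside each other. They run from 250 bases before to 50 after the RefSeq start site that lies nearest to the GENCODE gene start, in the build GRCm38.p6, written 5′ to 3′ on the gene's strand. Capitals mark the only matches to the motifs searched.
Il12rb2, chr6:67376139-67376438, minus strand: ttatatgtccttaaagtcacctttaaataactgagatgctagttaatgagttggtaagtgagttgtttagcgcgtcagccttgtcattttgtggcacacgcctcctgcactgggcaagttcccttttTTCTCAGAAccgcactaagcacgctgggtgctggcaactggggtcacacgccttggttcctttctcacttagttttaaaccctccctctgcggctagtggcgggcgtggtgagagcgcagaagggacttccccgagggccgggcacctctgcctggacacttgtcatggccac
Il4ra, chr7:125552021-125552320, plus strand: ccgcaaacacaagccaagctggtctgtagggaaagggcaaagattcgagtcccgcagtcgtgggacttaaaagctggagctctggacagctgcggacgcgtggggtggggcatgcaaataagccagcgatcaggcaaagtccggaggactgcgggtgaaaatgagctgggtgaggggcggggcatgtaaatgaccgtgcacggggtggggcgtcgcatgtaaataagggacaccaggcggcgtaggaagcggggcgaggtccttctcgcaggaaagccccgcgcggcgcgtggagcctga
Il18r1, chr1:40465302-40465601, plus strand: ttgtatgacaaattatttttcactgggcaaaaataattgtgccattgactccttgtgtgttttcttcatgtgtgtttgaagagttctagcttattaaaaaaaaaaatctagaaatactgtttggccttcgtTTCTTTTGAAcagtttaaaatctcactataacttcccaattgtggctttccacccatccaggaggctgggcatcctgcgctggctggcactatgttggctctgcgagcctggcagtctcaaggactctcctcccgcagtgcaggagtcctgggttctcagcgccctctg

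A search for 6 motifs was run on both strands of the 8 receptor promoters found in the RefSeq table. The motifs were the SMAD elements GGCGCC (in 11.9% of all 32851 promoters of this length) and GTCTAGAC (0.213%), the STAT element TTCNNNGAA (8.30%), the STAT6 element, in which TTC and GAA stand 1 base further apart (6.95%), the GATA element AGATAA (11.2%) and the T-box element AGGTGTGA (1.28%). Il12rb2 held 1 STAT element, starting 123 bases before the start site, and Il18r1 held 1 STAT6 element, starting 119 bases before it. Il18rap also held 1 STAT6 element, and Il1rl1 and Il6ra held 1 GATA element each. No match to any of the 6 was found in the Il4ra, Il21r and Il6st windows, and no receptor window held matches that overlapped. Il12rb1 and Il10ra are named only.

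Among the 13 receptor-proximal signalling genes, all were tested and 0 passed the threshold in either direction (limma), with a median log2 fold change of 0.02, against 0.04 over all genes tested. At an unadjusted limma p under 0.05 there was 1 on each side, Stat4 on the lower side and Stat3 on the higher. At that p 5.87% of all genes tested were lower and 9.29% higher. Stat3, which carries IL-6, IL-21 and IL-10 signals, was at 163 ± 6.28 FPKM in BMPR1a-deficient and 137 ± 2.85 in WT aTreg (SD, n = 3 each), with no overlap (log2 fold change 0.25, limma adjusted p = 0.305). Myd88, the adaptor of the IL-18 and IL-33 receptors, was chosen after its values were seen; it was at 34.5 ± 3.28 FPKM in BMPR1a-deficient and 40.5 ± 1.54 in WT aTreg (SD, n = 3 each, limma adjusted p = 0.371).

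Of the 8 feedback inhibitors, again all were tested and 0 passed, with a median log2 fold change of 0.31, against 0.04 over all genes tested. At an unadjusted limma p under 0.05 there was 1 on each side, where 9.29% of all genes tested were higher and 5.87% lower. Cish, a STAT5-induced inhibitor, was at 17.4, 24.2 and 34.4 FPKM in BMPR1a-deficient aTreg, against 12.5, 13.4 and 9.80 in WT aTreg. Every BMPR1a-deficient library was above every WT library (log2 fold change 0.99, SE 0.256, limma adjusted p = 0.165). Socs3, which blocks gp130 signalling, was at 9.33, 24.5 and 21.1 FPKM in BMPR1a-deficient aTreg, against 47.5, 29.2 and 34.8 in WT aTreg. Here every BMPR1a-deficient library was below every WT library (log2 fold change -1.06, SE 0.376, limma adjusted p = 0.282), and without BMPR1a-deficient replicate 1 the log2 fold change was -0.66.

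**Figure D4:**
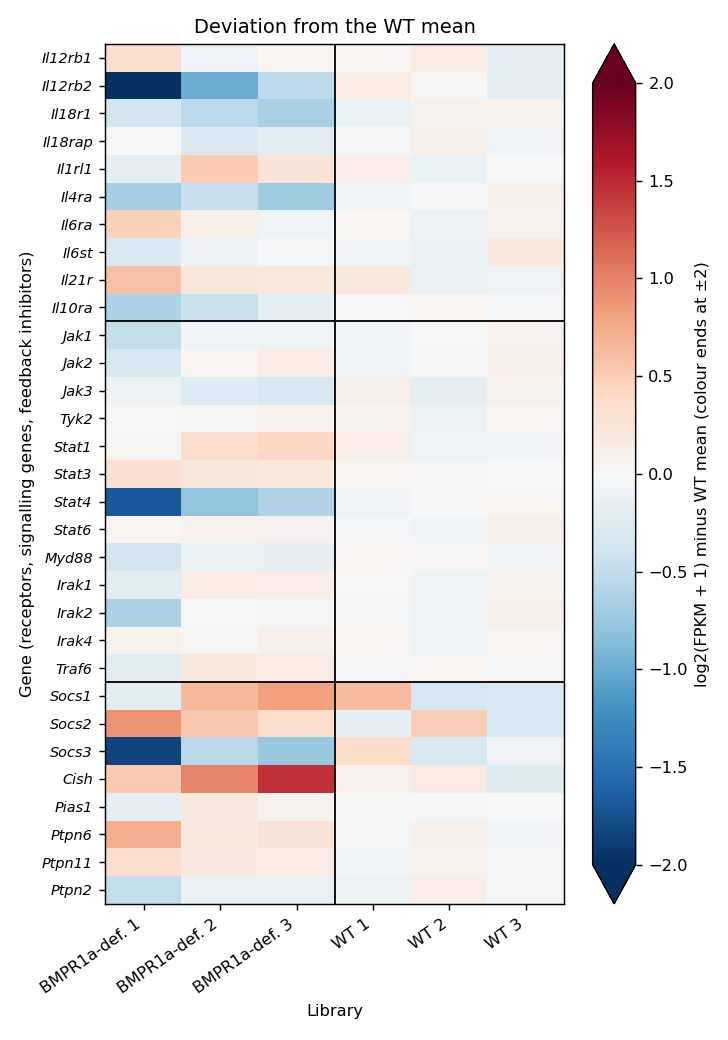
Deviation of each library from the WT mean, in log2(FPKM + 1), for the 10 receptors, 13 signalling genes and 8 feedback inhibitors, with BMPR1a-deficient libraries in the left columns and WT libraries in the right; the colour scale ends at ±2. Il12rb2, Stat4 and Socs3 are lowest in BMPR1a-deficient replicate 1 (-2.98, -1.68 and -1.86), while Il4ra lies at -0.68, -0.47 and -0.71 and Il18r1 at -0.36, -0.54 and -0.66 in BMPR1a-deficient replicates 1, 2 and 3.

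The cytokines that bind these receptors were scarce in the sorted cells. Of 13 ligands and soluble antagonists 11 were below the filter, 0 passed the threshold and 0 had an unadjusted limma p under 0.05. The 2 that were tested were Il18bp, which encodes a soluble inhibitor of IL-18, at 2.03 ± 0.595 FPKM in BMPR1a-deficient and 2.32 ± 0.238 in WT aTreg, and Ebi3, a chain of IL-27 and IL-35, at 3.43 ± 1.20 and 3.53 ± 0.355 (SD, n = 3 each, limma adjusted p = 0.697 and 0.894). Their log2 fold changes were -0.15 and -0.07, and 0.02 and 0.18 without BMPR1a-deficient replicate 1. Of the 14 tested lineage regulators and target genes of the helper subsets 0 passed, and 4 were higher and 0 lower at an unadjusted limma p under 0.05. At that p 9.29% of all genes tested were higher and 5.87% lower. The median log2 fold change of the 14 was 0.18, against 0.04 over all genes tested, and 5 more genes of the list were below the filter. The smallest p-values belonged to Maf, a regulator of IL-4 and IL-10 production, at 14.7 ± 2.43 FPKM in BMPR1a-deficient and 8.59 ± 0.762 in WT aTreg (log2 fold change 0.70, limma adjusted p = 0.0915). Ifng, the Th1 cytokine that IL-12 and IL-18 induce, followed at 5.01 ± 0.764 and 2.14 ± 1.07 (SD, n = 3 each, log2 fold change 0.98, limma adjusted p = 0.160).

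The genes with the profile most like a receptor were sought among 10361 other protein-coding genes tested, by the smallest root mean square difference of log2(FPKM + 1) over the 6 libraries after centring each gene on its mean. For Il12rb2 they were Ly6c1 (0.251), the mitochondrially encoded mt-Co1 (0.261) and Cd53 (0.266), against a root mean square of 1.07 for Il12rb2 about its own mean. All 4 were lowest in BMPR1a-deficient replicate 1, and mt-Co1 was at 1076 FPKM there, against 5229 and 5764 in the other BMPR1a-deficient libraries and 6453 to 7014.5 in WT. For Il4ra the nearest were Tmem63a (0.0539), Gramd4 (0.0629) and Mtfmt (0.0659), against 0.322 for Il4ra itself. For Il18r1 they were Iqgap2 (0.0552), Pyroxd1 (0.0649) and Ccs (0.0776), against 0.282. The genes nearest to Il4ra and Il18r1 had no overlap between the groups in any case, with the BMPR1a-deficient libraries lower. These patterns, like that of the genes nearest to Il12rb2, follow from picking the genes by their likeness to the receptors.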

How the data were processed

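RNA was sequenced from 6 libraries of sorted aTreg, 3 BMPR1a-deficient and 3 WT. The authors deposited FPKM, 1 column per library; TopHat2, Cufflinks and Cuffdiff and the build GRCm38.p4 are named per the submitters' processing notes, while no version, setting, annotation or strand handling is given in the sources used here. Read counts cannot be had from FPKM, and a model on log values was fitted instead. Depth was estimated from FPKM times length in 4318 genes, as the point where low values lay densest within a range set in advance. It is approximate. Symbols came from GENCODE M21 (GRCm38), which named 24876 of 25759 identifiers; promoters came from RefSeq. All columns were mapped by name, and 0 were left over.

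Genes with a mean of at least 1 FPKM entered a linear model of log2(FPKM + 1) on group (limma 3.58.1, R 4.3.3; eBayes with trend), tested on both sides with a Benjamini-Hochberg threshold of 0.05; the scale understates changes of low genes. Other analyses used Python 3.11.15. The fit was tested on simulated data in which all values varied independently. They held no outlying library such as BMPR1a-deficient replicate 1, so the test does not cover that case. The members and lists were chosen with earlier results of these data known. Named genes are Bmpr1a, the members, their partner chains and genomic neighbours, the genes most like the 3 members with the largest fold change, and up to 4 called genes of each list, or 2 by smallest p where 0 were called; Myd88, Stat6, Cd4, Foxp3, Ncr1, Klra8, Klrb1c and Tyrobp were named besides, and 1 gene that the rule names is not reported here. The 17 alternatives varied the pseudocount, filter, scaling, eBayes settings, sample weights, a replicate block, the genes tested and each library left out, and 1 more was chosen after seeing the data.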

Additional observations from a re-analysis of the deposited data

How the results depend on the processing

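The fit called 100 genes higher and 43 lower, against 833 and 407 with sample weights, 202 and 94 on protein-coding genes only, 27 lower with a mean of at least 5 FPKM and 70 lower with quantile normalization, where 55.7% of calls were higher instead of 69.9%. Leaving out 1 library gave 10 to 134 higher and 4 to 76 lower. The number of receptors called was 0, except 2 with sample weights (Il4ra and Il18r1) and 1 on protein-coding genes only (Il4ra); the cause was not tested. It was 0 whichever of the 6 libraries was left out. Over the alternatives, 148 of the receptors' fold changes kept their direction and their side of the threshold, 3 gained a call, and 1 reversed: Il12rb1, at -0.013 without BMPR1a-deficient replicate 1, in a range of -0.013 to 0.20 over the libraries left out. The replicate numbers are shared between groups, but same-numbered libraries deviated together only weakly (r = 0.0103, 0.0645 and 0.0518 over 13413 genes). BMPR1a-deficient replicates 2 and 3 correlated best with the WT library of their own number, and BMPR1a-deficient replicate 1 with WT replicate 2. With 3 libraries per group these values cannot settle whether the numbers pair the samples. A replicate block gave 5 higher and 5 lower genes, 0 receptors called and a limma adjusted p of 0.197 for Il4ra. The alternatives for the chain ratios moved each difference by less than 1 within-group SD. That SD includes BMPR1a-deficient replicate 1 and is 1.06 for Il12rb2 to Il12rb1. Without that library the Il12rb2 to Il12rb1 difference went from -1.61 to -0.75, and that of Il6ra to Il6st from 0.31 to 0.074. Those of Il18rap to Il18r1 and Il10ra to Il10rb were then 0.35 and -0.69. With a pseudocount of 0.1 the Il1rl1 to Il1rap difference was 0.43, against 0.22. The Il4ra to Il2rg difference turned to 0.092 without BMPR1a-deficient replicate 3. FPKM carry no counting error, so the error of scarce genes such as Il1rl1 is known only from the spread between libraries.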

Other observations

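Other receptors for cytokines that act on helper T cells were measured in the same libraries. Of 22 partner and related chains 13 were tested and 0 passed the threshold (limma), with a median log2 fold change of -0.14 over those tested, against 0.04 over all genes tested. At an unadjusted limma p under 0.05 there was 1 on each side, where 9.29% of all genes tested were higher and 5.87% lower. Il9r, the IL-9 receptor chain, was at 3.00, 1.92 and 2.17 FPKM in BMPR1a-deficient aTreg, against 0.668, 1.05 and 0.845 in WT aTreg, with no overlap (log2 fold change 0.85, SE 0.171, limma adjusted p = 0.0978). Ifngr1, the ligand-binding chain of the interferon-gamma receptor, was at 49.8, 136 and 148 FPKM in BMPR1a-deficient aTreg, against 191, 230 and 231 in WT aTreg (log2 fold change -1.10, limma adjusted p = 0.311). It was lowest in BMPR1a-deficient replicate 1, and without that library the log2 fold change was -0.60 (limma adjusted p = 0.0955). The IL-23 receptor gene Il23r was at or below 0.090 FPKM in all 6 libraries, and Il22ra2 was listed at 0 in all 6.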
